A study of Mus musculus with 6 samples.

Results

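Transcripts of 10 CXC chemokine genes were followed in peritoneal macrophages (PEMs) of mice: *Cxcl1*, *Cxcl2*, *Cxcl3*, *Cxcl5*, *Ppbp*, *Cxcl9*, *Cxcl10*, *Cxcl13*, *Cxcl16* and *Pf4*. They are 10 of the 15415 genes in the deposited table. The set was chosen on the comparison of knockout with control libraries itself, because *Cxcl1* and *Cxcl3* were lower and *Cxcl9* and *Cxcl10* higher in the knockout libraries. The differences of the members are therefore a description of these 6 libraries and are no evidence of their own. All 10 were among the 9030 genes with a mean of at least 1 FPKM in one group, which are called the tested genes here. FPKM is the number of reads of a gene scaled by the gene's length and by the reads of the library, so it allows levels of different genes to be compared. *Cxcl9* passed this filter through the knockout group alone, so a gene at its level had to differ in order to be included.

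PEMs were collected after an injection of starch into the peritoneal cavity. The 3 knockout libraries carried the genotype LysM-Cre; *Tim-4* fl/fl, and the 3 control libraries carried *Tim-4* fl/fl without Cre. LysM-Cre is expressed from the lysozyme gene *Lyz2*, so deletion is limited to myeloid cells and depends on *Lyz2* activity in each cell. LPS, a bacterial cell wall component that activates macrophages through Tlr4, is given as the treatment of all 6 libraries. The libraries were grouped by their titles, since the genotype entry of the labels has the groups exchanged. Neither labels nor methods say whether libraries of one group came from separate mice, so p-values measure only the spread between these libraries, which may be technical. *Timd4*, the gene of Tim-4, was at 0.333, 0.394 and 0.246 FPKM in knockout 1 to 3 and at 19.5, 12.0 and 1.19 FPKM in control 1 to 3, which accords with the titles. Control 3 stood apart by its low *Timd4*, and knockout 2 by its *Lyz2* of 4656 FPKM, against 41.4 and 106 FPKM in knockout 1 and 3 and 7090 to 8482 FPKM in the controls. The libraries held 36170767 to 42217558 reads, and all 7 macrophage markers were present, with *Adgre1* (F4/80) between 235 and 364 FPKM. Among them *Fcgr1*, an Fc receptor, was called (36.1 to 57.5 FPKM in knockout against 5.16 to 6.58 FPKM in control libraries), *Cd68* lay higher and *Csf1r* and *Cd14* lay lower in all knockout libraries without being called, and the other 3 overlapped. Over all tested genes 7.31% were called at an adjusted p below 0.05, and the groups did not overlap in 34.1%. In bulk RNA, fewer cells of one type and less RNA per cell cannot be told apart.

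CXC chemokines are small secreted proteins that bind G protein-coupled receptors and steer the migration of leukocytes. Those that carry the residues Glu-Leu-Arg (ELR) ahead of their first cysteines bind Cxcr2 and attract neutrophils. In mouse macrophages *Cxcl1*, *Cxcl2* and *Cxcl3* are rapidly induced through Tlr4 and NF-κB, while *Cxcl9* and *Cxcl10* are induced by interferons and attract activated T and NK cells through Cxcr3.

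The promoters of the 4 most abundant members of the knockout libraries are shown, since these genes carry most of the chemokine transcripts. RefSeq (build GRCm38.p6) had the region before the start for 8 of the 10 members, matched by symbol, and no entry was used for *Cxcl5* and *Cxcl16*. The labels name mm9 as the build of the deposited data, so these coordinates belong to the RefSeq build only. The 250 bases before the start are given 5′ to 3′ on the strand of the gene, for *Cxcl1* (chr5:90890995-90891244, plus strand), *Cxcl2* (chr5:90903649-90903898, plus strand), *Cxcl3* (chr5:90785851-90786100, plus strand) and *Cxcl10* (chr5:92348890-92349139, minus strand). Capitals mark letters of the NF-κB motif GGGNNNTTCC and of the interferon-stimulated response element (ISRE) GAAANNGAAA, searched on both strands.
Cxcl1: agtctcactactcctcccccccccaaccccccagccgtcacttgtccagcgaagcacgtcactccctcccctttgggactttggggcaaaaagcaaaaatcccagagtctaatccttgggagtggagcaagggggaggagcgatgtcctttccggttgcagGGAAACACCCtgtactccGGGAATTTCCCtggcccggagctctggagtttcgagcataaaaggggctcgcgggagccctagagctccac
Cxcl2: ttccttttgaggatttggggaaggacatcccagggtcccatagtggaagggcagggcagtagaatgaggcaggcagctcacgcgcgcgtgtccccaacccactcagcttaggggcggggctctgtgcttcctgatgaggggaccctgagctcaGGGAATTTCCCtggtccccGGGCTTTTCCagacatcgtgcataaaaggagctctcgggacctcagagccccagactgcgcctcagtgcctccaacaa
Cxcl3: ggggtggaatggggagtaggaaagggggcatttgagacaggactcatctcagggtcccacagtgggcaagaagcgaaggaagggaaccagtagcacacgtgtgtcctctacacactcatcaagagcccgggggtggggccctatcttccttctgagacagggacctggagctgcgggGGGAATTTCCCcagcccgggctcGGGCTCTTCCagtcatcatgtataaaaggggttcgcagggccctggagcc
Cxcl10: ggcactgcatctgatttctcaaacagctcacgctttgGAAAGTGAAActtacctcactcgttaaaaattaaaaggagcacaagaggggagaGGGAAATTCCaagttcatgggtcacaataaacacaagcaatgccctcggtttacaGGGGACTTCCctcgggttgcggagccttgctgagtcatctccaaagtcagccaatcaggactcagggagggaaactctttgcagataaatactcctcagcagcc

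*Cxcl1*, *Cxcl2* and *Cxcl3* shared the run GGGAATTTCCC, which is 11 bases long and holds a match of the NF-κB motif on either strand, shifted by 1 base. The run began at -71, -97 and -73 relative to the start, and 14 of 32851 RefSeq windows of this length held it (0.0426%). Each of the 3 held a further match of the NF-κB motif, at -89 on the minus strand in *Cxcl1*, at -78 in *Cxcl2* and at -50 in *Cxcl3*. *Cxcl10* held NF-κB letters at -159 and -104 and an ISRE, GAAAGTGAAA, at -213, and 36 windows (0.11%) held letters of both motifs. By themselves NF-κB letters were in 4.65% and ISRE letters in 2.98% of all windows. The windows of *Cxcl9*, *Ppbp*, *Cxcl13* and *Pf4* held neither motif, nor the letters TTCNNNGAA of the interferon γ-activated site (GAS), which 7.02% of windows held on either strand. The AP-1 letters TGANTCA (either strand, 6.75% of windows) were at -74 in *Cxcl10* and at -204 in *Ppbp*. A TATAAA box on the plus strand (7.59% of windows) was at -30 in *Cxcl3* and *Ppbp*, again at -8 in *Ppbp*, at -46 in *Cxcl13* and at -195 in *Cxcl9*. A match is a description of letters and does not show that a factor binds.

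**Figure D1:**
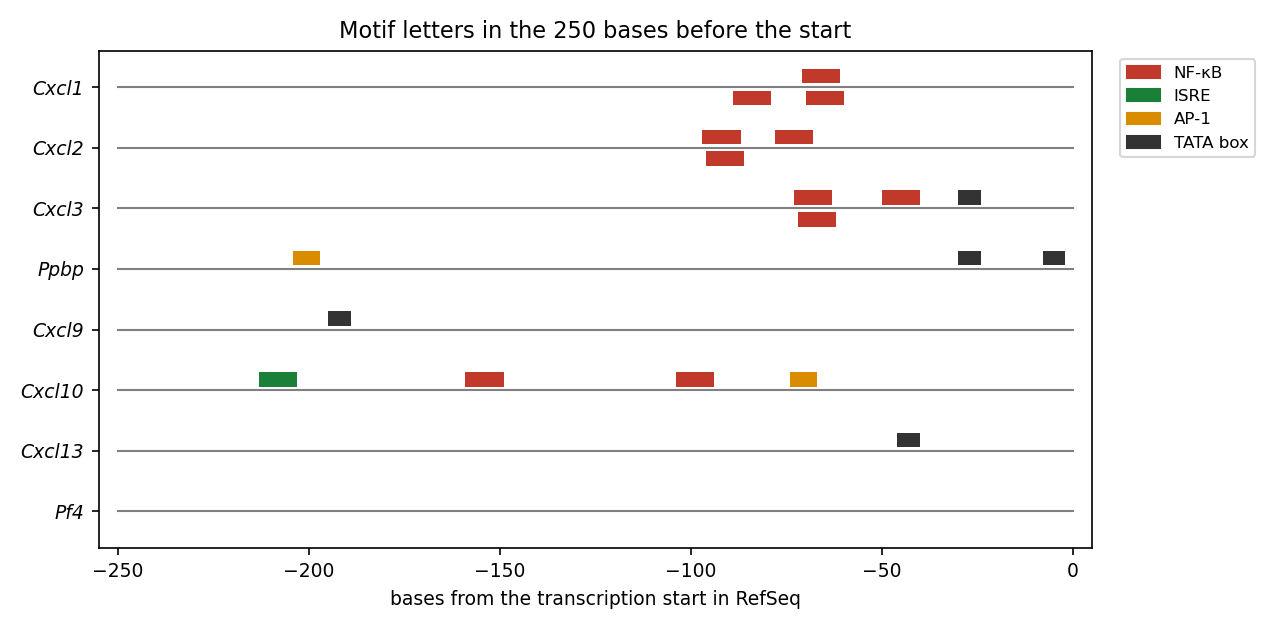
Positions of motif letters in the 250 bases before the RefSeq start of 8 CXC chemokine genes (x axis, bases from the start; boxes above each line are matches on the strand of the gene and boxes below it on the other strand). *Cxcl1*, *Cxcl2* and *Cxcl3* hold NF-κB letters within 100 bases of the start, and *Cxcl10* alone among the 8 holds ISRE letters, at -213.

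Among the ELR chemokines, *Cxcl2* (Entrez 20310), the macrophage inflammatory protein 2 gene, was the most abundant in every library, and over all 10 members it was exceeded only by *Cxcl10* in knockout 2. It was at 4361, 3345 and 4593 FPKM in knockout 1 to 3 and at 7240, 8588 and 8460 FPKM in control 1 to 3. Every knockout library lay below every control library, and within each group the libraries were close. The group means were 4099 ± 664 FPKM (SD, n = 3) in knockout and 8096 ± 744 FPKM (SD, n = 3) in control libraries, and the difference on the log2(FPKM + 1) scale was -0.99 (SE 0.16, 95% interval -1.38 to -0.60). Because 1 FPKM is added before the logarithm, such differences understate the change of low genes.

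*Cxcl1* (Entrez 14825), the keratinocyte chemoattractant gene KC, followed the same order of groups at a lower level. It was at 958, 1152 and 1544 FPKM in knockout libraries and at 2935, 3227 and 2231 FPKM in control libraries. The groups did not overlap, and the highest knockout library (3) and the lowest control library (3) were the nearest to each other. The mean was 1218 ± 298 against 2798 ± 512 FPKM (SD, n = 3 each), a log2 difference of -1.21 (SE 0.22, 95% interval -1.73 to -0.69).

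*Cxcl3* (Entrez 330122), whose product shares Cxcr2 with Cxcl1 and Cxcl2, was the most variable of the 3 within the knockout group. It was at 1383, 620.3 and 2487 FPKM in knockout libraries, a spread of several-fold in which knockout 2 was lowest, and at 3905, 5805 and 4697 FPKM in control libraries. The groups did not overlap. The mean was 1497 ± 939 against 4802 ± 955 FPKM (SD, n = 3 each), and the log2 difference was -1.88 (SE 0.46, 95% interval -2.96 to -0.80), or -1.35 without knockout 2. *Cxcl1*, *Cxcl2* and *Cxcl3* are close relatives in sequence, and how reads matching several places were counted is not given in the sources used here.

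*Cxcl5* (Entrez 20311), an ELR chemokine better known from epithelial and stromal cells, was far lower. It was at 6.48, 3.53 and 46.1 FPKM in knockout libraries and at 35.5, 210.3 and 161 FPKM in control libraries. Knockout 3 lay above control 1, so the groups overlapped. Its log2 difference of -3.20 was the largest in size of the 10 and had a wide interval (SE 0.97, 95% interval -5.47 to -0.93).

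*Ppbp* (Entrez 57349), the platelet basic protein gene and the last ELR member, was at 3.51, 1.38 and 18.9 FPKM in knockout and at 1.01, 26.3 and 59.0 FPKM in control libraries. Control 1 was the lowest of all 6, and the knockout libraries lay within the range of the controls. The log2 difference of -1.32 had an interval that included 0 (SE 1.29, 95% interval -4.35 to 1.72), so no direction could be given for *Ppbp* from these libraries, and with 1 library left out it ran from -2.76 without control 1 to -0.31 without control 3.

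**Figure D2:**
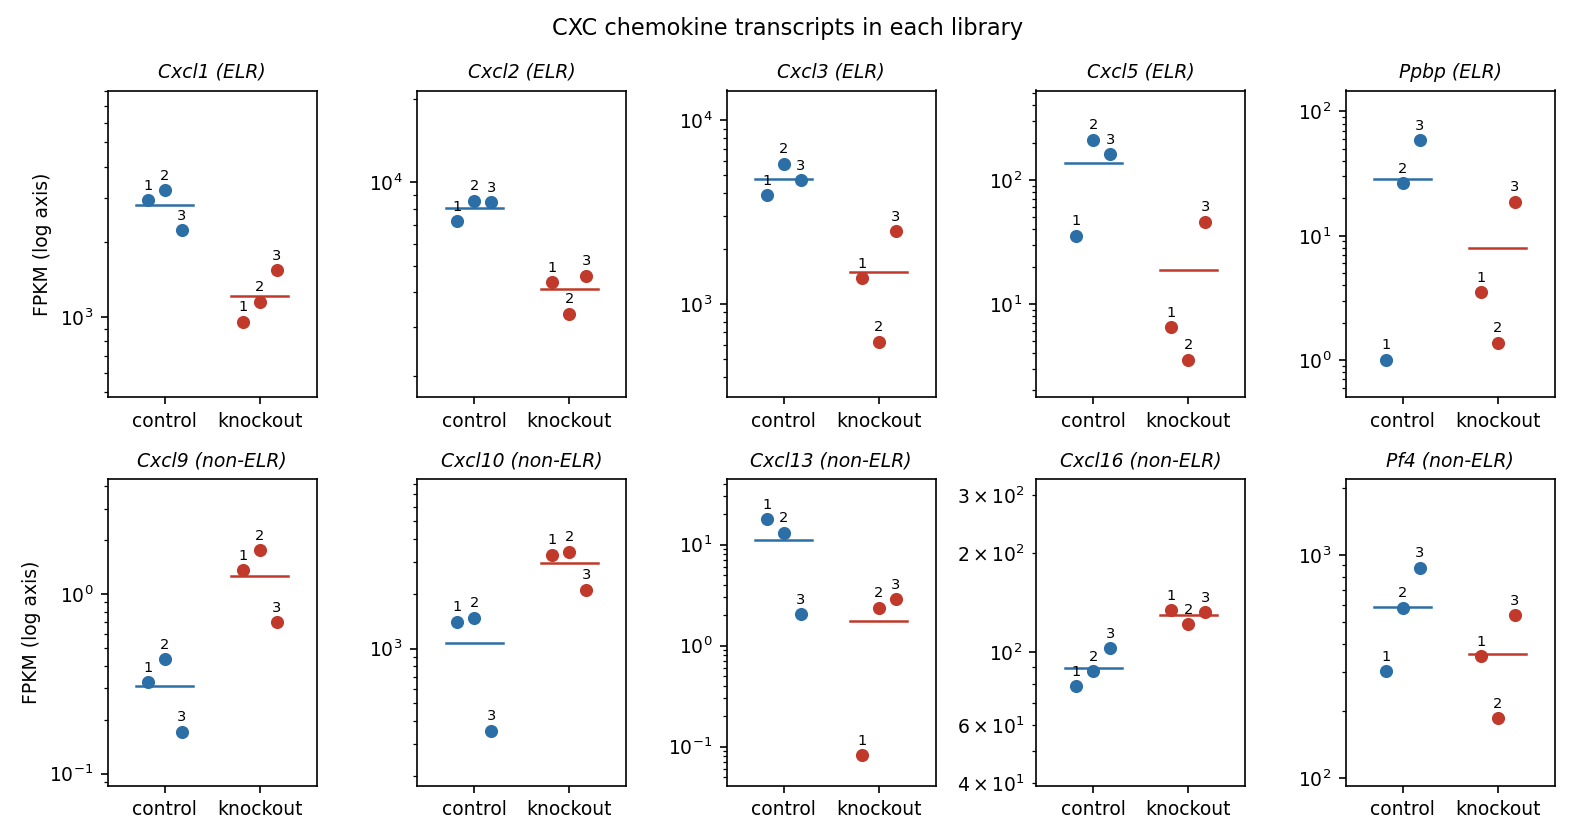
FPKM of the 10 CXC chemokine genes in each library (log y axes with a scale of their own per gene; points are libraries with their replicate number and horizontal lines are group means, n = 3 each). Control and knockout points separate for *Cxcl1*, *Cxcl2*, *Cxcl3*, *Cxcl9*, *Cxcl10* and *Cxcl16* and overlap for the other 4 genes.

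Of the interferon-induced chemokines, *Cxcl10* (Entrez 15945), the gene of IP-10, reached the level of the abundant ELR genes in the knockout libraries. In every control library it lay below *Cxcl1*, *Cxcl2* and *Cxcl3*. It was at 3275, 3404 and 2102 FPKM in knockout libraries and at 1399, 1474 and 354 FPKM in control libraries. All knockout libraries lay above all controls, and library 3 was the lowest of its group on both sides. The mean was 2927 ± 718 against 1076 ± 626 FPKM (SD, n = 3 each), a ratio of 2.72, and the log2 difference was 1.67 (SE 0.54, 95% interval 0.40 to 2.93). Without control 3 the difference was 0.99, the lowest value with any 1 library left out.

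*Cxcl9* (Entrez 17329), the gene of MIG and the classical target of interferon γ, was rare in every library. It was at 1.36, 1.75 and 0.698 FPKM in knockout libraries, from 83 to 215 reads, and at 0.323, 0.433 and 0.171 FPKM in control libraries, from 18 to 49 reads. The groups did not overlap, and the ratio of the means was 4.11. The log2(FPKM + 1) difference was 0.77 (SE 0.20, 95% interval 0.31 to 1.23), a smaller number than the ratio because the added 1 FPKM is as large as the level itself. *Cxcl10* was between 1942 and 4337 times as abundant as *Cxcl9* per library in FPKM, and the 6 libraries had the same rank order for both genes. *Cxcl11*, the other Cxcr3 ligand, had no entry under this symbol in the deposited table.

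Among the remaining members *Cxcl16* (Entrez 66102), a transmembrane chemokine that is shed by proteases and binds Cxcr6, showed the smallest spread. It was at 134, 121 and 132 FPKM in knockout libraries and at 78.6, 87.5 and 103 FPKM in control libraries. The groups did not overlap although the gap was small. The mean was 129 ± 6.86 against 89.7 ± 12.3 FPKM (SD, n = 3 each), and the log2 difference was 0.53 (SE 0.14, 95% interval 0.20 to 0.86).

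*Cxcl13* (Entrez 55985), which attracts B cells through Cxcr5 and is made by peritoneal macrophages, was at 0.0819, 2.36 and 2.86 FPKM in knockout and at 17.9, 13.1 and 2.05 FPKM in control libraries. Control 3 lay below knockout 2 and 3, so the groups overlapped through that library. The log2 difference was -1.95 (SE 0.75, 95% interval -3.71 to -0.19) with it and -2.76 without it. B cell markers moved alongside. Their summed level was 2.78 to 5.52 FPKM in knockout and 27.5 to 115 FPKM in control libraries with control 3 lowest, and all 5 were lower past an adjusted p of 0.05, as 4.74% of all tested genes were. Nothing is read from this count, since 4 of the 5 passed the filter through the control group alone. Their part in the *Cxcl13* values was not tested.

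*Pf4* (Entrez 56744), the platelet factor 4 gene, was at 352, 185 and 538 FPKM in knockout and at 301, 580.0 and 876 FPKM in control libraries. The groups overlapped, and the log2 difference of -0.71 had an interval that included 0 (SE 0.48, 95% interval -1.84 to 0.42). With 1 library left out it ran from -1.12 without control 1 to -0.30 without knockout 2. *Pf4* and *Ppbp* are best known from platelets. The platelet and megakaryocyte markers in the table, 7 of 9 listed, summed to 0.411 to 0.666 FPKM in knockout and 0.779 to 0.848 FPKM in control libraries. *Gp1ba* and *Gp5* were at 0 in all knockout libraries and at most at 0.101 FPKM in a control, *Gp6* reached 0.424 FPKM in control 1, *Clec1b* lay between 0.130 and 0.407 FPKM over the 6 libraries, and *Treml1* was higher in all knockout libraries but at most at 0.0977 FPKM. Their part in the *Pf4* and *Ppbp* values was not tested. *Pf4* was 14.9 to 299 times as abundant as *Ppbp* in FPKM across the 3 control libraries and 28.5 to 135 times as abundant across the 3 knockout libraries.

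**Figure D3:**
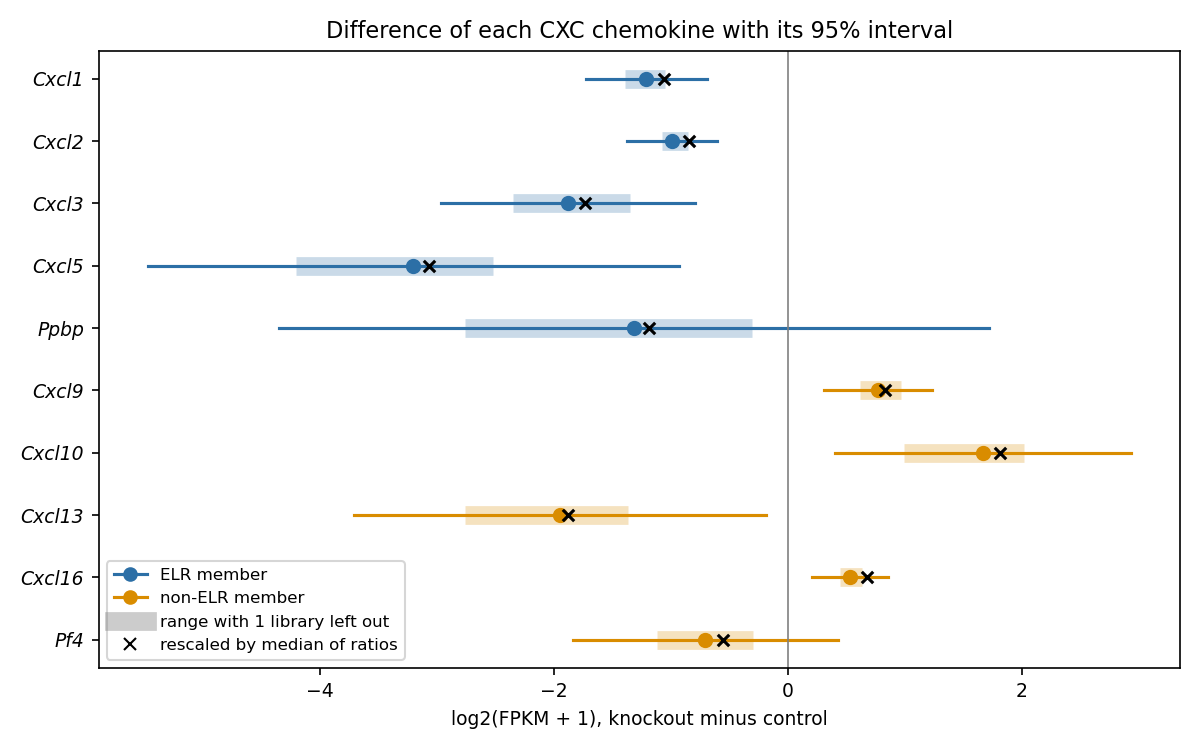
Difference of each CXC chemokine on the log2(FPKM + 1) scale, knockout minus control (x axis; points with 95% intervals from limma, bands for the range with any 1 library left out, crosses after rescaling by the median of ratios, n = 3 libraries each). The ELR members lie on the left from -3.20 to -0.99 together with *Cxcl13* and *Pf4*, and *Cxcl9*, *Cxcl10* and *Cxcl16* lie on the right from 0.53 to 1.67.

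As a list, 7 of the 10 members had a negative and 3 a positive difference. All 5 ELR members were negative, and their median of -1.32 was the value of *Ppbp*, for which no direction could be given. The median over all tested genes was -0.11, and nothing is read from the distance, since the members were chosen on this contrast. In limma with Benjamini-Hochberg adjustment over all 9030 tested genes, *Cxcl2* (adjusted p = 0.0197) and *Cxcl1* (adjusted p = 0.0254) were below the threshold of 0.05, and the adjusted p of the other 8 members ran from 0.0533 for *Cxcl3* to 0.538 for *Ppbp*. Over all tested genes 7.31% were called, 4.74% lower and 2.57% higher. Since the members were chosen on this contrast, nothing is read from their count of 2 against these shares. With the replicate number as a block 5 members were called, *Cxcl1*, *Cxcl2* and *Cxcl5* lower and *Cxcl9* and *Cxcl10* higher, beside 9.47% of all tested genes. The count depended on single libraries, from 0 members without knockout 1, knockout 2 or control 2 to 5 members without knockout 3 or control 3. The groups did not overlap in 6 of 10 members, 3 lower and 3 higher, where 34.1% of all tested genes did not overlap, 23.0% lower and 11.1% higher.

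The make-up of the chemokine transcripts was then compared within each library, where the scaling of the library cancels out. The 10 genes summed to 10258 ± 1327 FPKM in knockout and 17623 ± 2132 FPKM in control libraries (SD, n = 3 each). ELR members made up 64.1%, 58.0% and 75.8% of this sum in knockout 1 to 3 and 88.7%, 89.2% and 92.1% in control 1 to 3. The share of *Cxcl10* was 31.3%, 38.5% and 18.3% in knockout libraries and 8.79%, 7.36% and 2.09% in control libraries. Neither share overlapped between the groups, and knockout 3 lay nearest to the controls in both. The share of *Cxcl2* was 37.8% to 41.6% in knockout and 42.9% to 49.9% in control libraries, also without overlap, and *Cxcl3*, with 7.02% to 21.7% against 24.5% to 29.0%, differed most in share among the ELR genes. The share of *Cxcl1* overlapped between the groups, with 9.14% to 13.5% in knockout and 13.2% to 18.4% in control libraries. For *Pf4* the mean share was 3.39% against 3.32%.

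**Figure D4:**
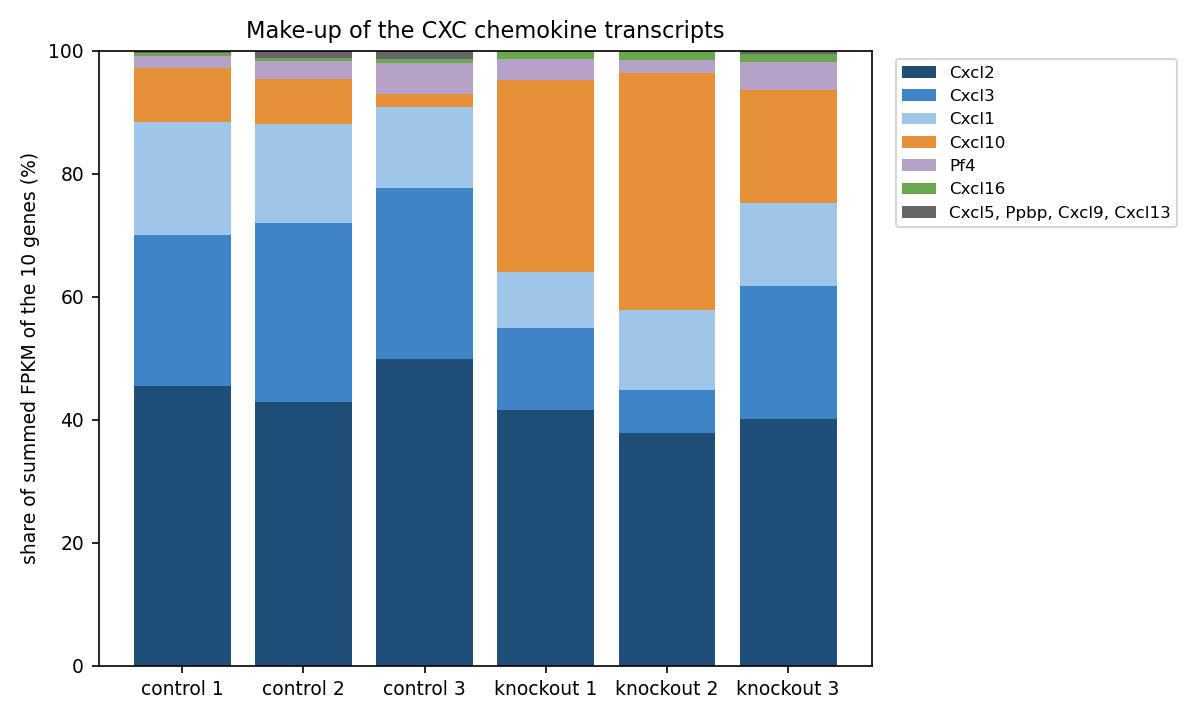
Share of each gene in the summed FPKM of the 10 CXC chemokine genes (y axis, percent; one bar per library). *Cxcl10* takes 18.3% to 38.5% of the bar in the knockout libraries and 2.09% to 8.79% in the control libraries, and *Cxcl2* is the largest ELR share in every bar.

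The order of levels also differed between the groups. In control libraries *Cxcl2* was followed by *Cxcl3*, *Cxcl1*, *Cxcl10* and *Pf4*, then by *Cxcl5* (136 ± 90.1 FPKM), *Cxcl16*, *Ppbp* (28.8 ± 29.1 FPKM), *Cxcl13* (11.0 ± 8.11 FPKM) and *Cxcl9* (0.309 ± 0.131 FPKM), each as mean ± SD of 3 libraries. The neighbours *Cxcl10* and *Pf4*, *Cxcl5* and *Cxcl16*, and *Ppbp* and *Cxcl13* overlapped in this order. In knockout libraries *Cxcl10* stood directly after *Cxcl2*, followed by *Cxcl3*, *Cxcl1*, *Pf4*, *Cxcl16*, *Cxcl5* (18.7 ± 23.8 FPKM), *Ppbp* (7.92 ± 9.54 FPKM), *Cxcl13* (1.77 ± 1.48 FPKM) and *Cxcl9* (1.27 ± 0.533 FPKM). There the libraries of all neighbours from *Cxcl2* to *Cxcl1* and from *Cxcl5* to *Cxcl9* overlapped. The ratio of *Cxcl10* to *Cxcl1* in FPKM was 3.42, 2.96 and 1.36 in knockout libraries and 0.477, 0.457 and 0.159 in control libraries, so *Cxcl10* exceeded *Cxcl1* in all knockout libraries and in no control library. For the geometric mean of *Cxcl9* and *Cxcl10* over that of *Cxcl1*, *Cxcl2* and *Cxcl3*, the log2 ratio was -4.75, -4.11 and -6.09 in knockout and -7.68, -7.75 and -9.16 in control libraries. The group means of this ratio differed by 3.21, and by 2.73 to 3.77 with any 1 library left out.

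Rank orders over the 6 libraries are given as a description, since they contain the difference between the groups. *Cxcl2* and *Cxcl3* ranked the libraries identically (Spearman's rho 1), as did *Cxcl9* and *Cxcl10*, and the ranks of *Cxcl2* and *Cxcl10* ran against each other (rho -0.83). *Ppbp* and *Pf4* shared most of their order (rho 0.94). By Pearson's r of log2(FPKM + 1) over the 6 libraries, non-member genes much like *Cxcl1* among 5451 tested genes with a mean of at least 5 FPKM were *Rps27* and *Stfa3* (r 0.995 and 0.994), and 7.74% of these genes had an r above 0.9. The genes most like *Cxcl10* were *Nt5c3*, *Lgals8* and *Etnk1* (r 0.999, 0.996 and 0.995), with 5.36% above 0.9.

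Receptors of these chemokines were rare in the PEM libraries. Of 8 CXC receptor genes 7 were listed and 2 reached the filter. *Cxcr5*, the receptor of Cxcl13 that B cells carry, was at 0.586, 0.664 and 0.361 FPKM in knockout and 8.87, 5.18 and 1.95 FPKM in control libraries and fell by 1.88 on the log2 scale (SE 0.40, adjusted p = 0.0359 from limma). It passed the filter through the control group alone. No CXC receptor was called by limma after rescaling by the median of ratios, with voom, or without any of knockout 1, knockout 2, knockout 3 and control 2. *Cxcr4*, the receptor of Cxcl12, was at 2.94, 2.01 and 3.14 FPKM against 4.86, 4.58 and 9.82 FPKM without passing the threshold (log2 difference -0.95, adjusted p = 0.079 from limma), which it did pass with the replicate block (adjusted p = 0.0351). *Cxcr2*, the neutrophil receptor of the ELR chemokines, was at most at 0.0531 FPKM, and *Cxcr3*, the receptor of Cxcl9 and Cxcl10, at most at 0.258 FPKM. *Cxcr6*, the receptor of Cxcl16, was at 0.126, 0.10 and 0.206 FPKM in knockout and 0.495, 0.583 and 0.526 FPKM in control libraries, below the filter. Of the ligands outside the set, *Cxcl12* and *Cxcl14* were listed below 0.5 FPKM in every library.

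Neutrophil markers were compared because ELR chemokines attract these cells. Of 10 markers 9 were listed, their summed level was 109 to 230.4 FPKM in knockout and 232 to 479 FPKM in control libraries, and 2 of 6 tested were called, both lower, where 4.74% of all tested genes were called lower. *S100a8*, a calcium-binding protein abundant in neutrophils, was at 52.9, 39.9 and 70.5 FPKM in knockout and 171, 156 and 156 FPKM in control libraries (log2 difference -1.58, adjusted p = 0.0113 from limma). The granule gene *Camp* was at 0.356 to 0.856 against 1.38 to 1.56 FPKM (log2 difference -0.64, adjusted p = 0.0454 from limma) and passed the filter through the control group alone. The other 4 tested were not called. *Csf3r*, the receptor of granulocyte colony-stimulating factor, was at 29.1 to 49.2 against 20.1 to 37.7 FPKM (log2 difference 0.46), *S100a9* and *Mmp8* overlapped between the groups, and *Retnlg* lay lower in all knockout libraries (0.779 to 1.21 against 1.73 to 3.08 FPKM, log2 difference -0.75, adjusted p = 0.0503 from limma). Like *Camp*, *Retnlg* passed the filter through the control group alone, so nothing is read from the count of neutrophil markers called. The granule genes *Ngp* and *Ltf* did not exceed 0.151 FPKM in any library. T and NK cell markers, the targets of Cxcl9 and Cxcl10, summed to 0.0493 to 0.175 FPKM in knockout and 0.209 to 1.17 FPKM in control libraries. Other cell markers are given by their summed levels and, beside the same 4.74% of all tested genes, by the number called lower. Mast cell markers summed to 1.89 to 2.25 against 37.5 to 49.0 FPKM with 5 of 5 lower, large peritoneal macrophage markers to 105 to 194 against 312 to 401 FPKM with 3 of 5 tested lower, and small peritoneal macrophage and monocyte markers to 473 to 1251 against 860.0 to 2259 FPKM with 1 of 6 lower. All 5 mast cell markers, 3 of the 5 tested large peritoneal macrophage markers and 1 of these 6 passed the filter through the control group alone, so a marker at such a level had to differ to be tested and nothing is read from these counts. Mesothelial and fibroblast markers summed to 10.9 to 26.9 against 2.04 to 13.1 FPKM with 0 of 3 called by limma (1 at an unadjusted p below 0.05). Of these 3, 2 passed the filter through the knockout group alone, so nothing is read from these p-values. Dendritic cell markers did not exceed a sum of 0.883 FPKM. The part of these cells in the chemokine values was not tested.

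The genes that respond to the same signals as the chemokines were described from lists. Of 24 NF-κB targets 2 were called, both higher, with 15 positive and 9 negative differences and a median of 0.13, where 7.31% of all tested genes were called and their median was -0.11. *Nfkbia*, the inhibitor IκBα, was at 469, 379 and 327 FPKM in knockout and 249, 211 and 185 FPKM in control libraries (log2 difference 0.86, adjusted p = 0.0355 from limma), and *Cd40*, a costimulatory receptor, rose by 1.0 (adjusted p = 0.0396 from limma). With 1 library left out the count of NF-κB targets called ran from 0 (without knockout 1, knockout 2 or control 2) to 6 (without control 3), it was 0 without a filter on low values, and 1 after rescaling or with voom. The cytokine genes at the level of the ELR chemokines did not pass. *Tnf* was at 5695, 4872 and 4204 FPKM in knockout and 3615, 3220 and 4491 FPKM in control libraries (log2 difference 0.39, adjusted p = 0.212 from limma). *Il1a* was at 2139, 1617 and 1246 against 3295, 2306 and 836 FPKM (-0.19, adjusted p = 0.83 from limma). *Il1b* was at 1410, 916 and 653 against 2625, 1536 and 418 FPKM (-0.33, adjusted p = 0.765 from limma). For both, control 1 and 2 lay above every knockout library and control 3 lay below. The same held for *Il6* (-0.88) and *Ptgs2* (-0.81), while *Il12b* differed by 0.90, none of them called. The negative differences of *Cxcl1*, *Cxcl2* and *Cxcl3* thus stood beside NF-κB targets with differences of either sign.

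Of 19 tested type I interferon targets all 19 had a positive difference with a median of 0.95, and in 12 the groups did not overlap, where 11.1% of all tested genes did not overlap in this direction. Only *Stat2*, a subunit of the interferon-activated factor ISGF3, was called, 1 of 19 where 2.57% of all tested genes were called higher. It was at 98.8, 84.6 and 75.6 FPKM in knockout and 51.2, 36.5 and 23.3 FPKM in control libraries and rose by 1.26 (adjusted p = 0.0383 from limma). *Rsad2*, the antiviral enzyme viperin, was at 2586, 3103 and 1751 FPKM against 1227, 1025 and 357 FPKM (log2 difference 1.66, adjusted p = 0.0724 from limma). *Ifit1* and *Isg15*, which bind viral RNA and tag proteins, differed by 1.22 and 0.73 without passing. Control 3 had the lowest level of each of these 4 genes, as it had of *Cxcl9* and *Cxcl10*. The number of type I interferon targets called was 8 with the replicate block, and with 1 library left out it ran from 0 to 7. None of the 19 was called with voom, with rescaled values or when low values were not filtered, so the call of *Stat2* was lost in each of these alternatives.

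Of 15 interferon γ targets 13 were positive, the median was 0.97 beside -0.11 over all tested genes, 2 were called higher and 1 lower, where 2.57% and 4.74% of all tested genes were called in these directions. With the replicate block 6 were called, and with 1 library left out the count ran from 0 (without knockout 1 or control 2) to 6 (without control 1 or control 3). *Irf1*, a transcription factor known to bind ISREs, was at 187, 180 and 162 FPKM in knockout and 75.3, 65.6 and 76.7 FPKM in control libraries and rose by 1.27 (SE 0.13, adjusted p = 0.00651 from limma). *Cd274*, the gene of PD-L1, rose by 1.13 (adjusted p = 0.022 from limma), and *Ciita*, the MHC class II transactivator, fell by 0.63 (adjusted p = 0.0426 from limma) after passing the filter through the control group alone. *Gbp5*, *Gbp2* and *Irgm1*, interferon-induced GTPases, differed by 1.12, 0.96 and 0.97 without passing, as did *Nos2* by 1.96. The interferons themselves were below the filter. *Ifnb1* was at 0.587, 0.831 and 1.14 FPKM in knockout and 0.197, 0.200 and 0.215 FPKM in control libraries, and *Ifng* was at 0.275, 0.235 and 0.162 FPKM against 0.796, 0.679 and 0.0685 FPKM. Of the 4 tested interferon receptor genes 0 were called by limma, and 0 had an unadjusted p below 0.05 (*Ifngr2* 0.28, *Ifnar1* 0.10, *Ifnar2* 0.01 and *Ifngr1* -0.31 on the log2 scale). The enzymes that cut CXC chemokines were not called by limma either (0 of 6 tested, and 0 at an unadjusted p below 0.05), among them *Adam10*, which sheds Cxcl16 (log2 difference -0.38), *Adam17* (0.04), and *Mmp12* and *Mmp8*, which cleave ELR chemokines (0.57 and -0.46).

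**Figure D5:**
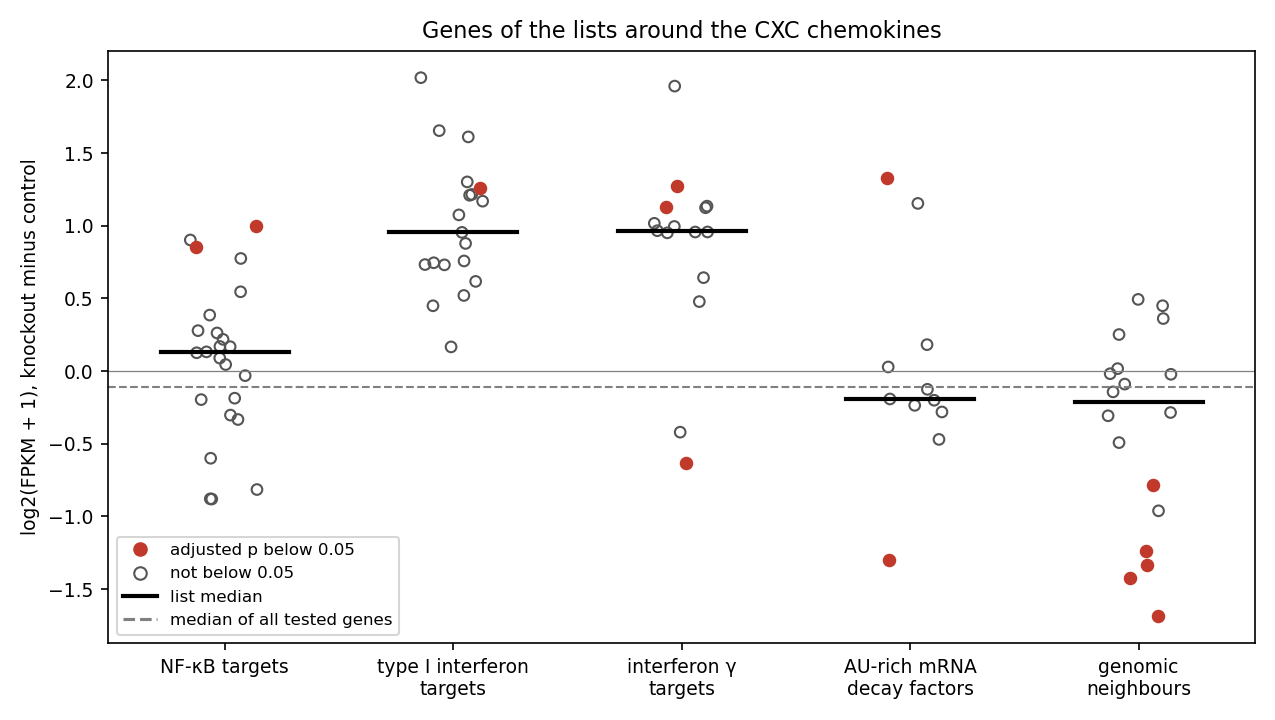
Differences of the tested genes of 5 lists on the log2(FPKM + 1) scale, knockout minus control (y axis; one point per gene, filled where the adjusted p from limma was below 0.05, n = 3 libraries each; black bars are list medians and the dashed line is the median of all tested genes, -0.11). The medians were 0.13 for NF-κB targets, 0.95 for type I interferon targets and 0.97 for interferon γ targets.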

How the data were processed

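RNA of PEMs was measured in 6 libraries, 3 of each genotype, grouped by title. The authors deposited 1 table, with FPKM per gene and library. Its signal columns are group means of reads that the authors had divided by size factors. The deposited table also holds the authors' own comparison, as a fold change (a ratio), a log2 fold change, a p-value and a q-value per gene, and these columns were not used. The submitters' processing notes name mm9, and the aligner and the counting are not given in the sources used here. Whole reads were recovered from the deposited FPKM and group means, with 100% of values within 0.05 of a whole read. They came to 36170767 to 42217558 per library, and the lowest read numbers of members were 4 for *Cxcl13* in knockout 1, 18 for *Cxcl9* in control 3 and 43 for *Ppbp* in control 1. No per-sample column was left unused (0).

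Values were fitted as log2(FPKM + 1) with limma 3.58.1 in R 4.3.3 (lmFit, eBayes with a trend) over the 9030 genes with a mean of at least 1 FPKM in one group, with Benjamini-Hochberg adjustment and a threshold of 0.05. Adjusted p-values are from this fit unless an alternative is named beside them, and lists were described by counts and medians without a set test. An exact permutation test of 3 against 3 cannot give a two-sided p below 0.1 and was not run. On simulated reads with genes changed 4-fold, 198 of 198 tested were recovered for knockout against control among 8848 genes, and 7 unchanged genes were called. The simulation used the same setting of spread for every gene and no library that stood apart. It therefore checks the running of the fit and does not vouch for calls in the real libraries. Deviations of libraries with the same replicate number correlated at 0.109, 0.11 and 0.304 for numbers 1, 2 and 3, and those of other numbers between -0.33 and 0.29. Each same-number value passed a cut of 0.1, but knockout 2 correlated more with control 1 (0.29) than with control 2. The check therefore does not show that the numbers are pairs, and the replicate block is given as an alternative only.

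The members, lists, tests and alternatives were chosen with earlier results of these data known. Named were all members, *Timd4* and *Lyz2*, the called genes of each list with up to 3 others of the highest mean FPKM, and the 3 genes most like *Cxcl1* and *Cxcl10*, of which not all are reported here. Other genes, among them the receptors, interferons, proteases, markers and some targets below the threshold, were named for their role after their values were seen. Neighbouring genes were the 5 nearest protein-coding genes on either side in the RefSeq gene table of GRCm38.p6, used for order only. Alternatives were no filter on low values, at least 10 reads in every library, a pseudocount of 0.1, the replicate block, rescaling by the median of ratios, voom on the recovered reads, a threshold of 0.1 and each library left out in turn. Leaving out control 3 and knockout 2 together was added after seeing the data.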

Additional observations from a re-analysis of the deposited data

How the results depend on the processing

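Members kept the sign of their difference in every alternative that tested them (*Cxcl13* was not among the genes with at least 10 reads in every library) except the one without control 3 and knockout 2 together, which was chosen after seeing the data. There *Ppbp* turned to 0.35 and *Pf4* to 0.0596 on the log2 scale. The number of members called, 2, was 5 with the replicate block, 0 without a filter on low values (7 at an unadjusted p below 0.05 in limma) and 6 at an adjusted p of 0.1, and it ran from 0 to 5 with 1 library left out. Where it was 0 by leaving out knockout 1, knockout 2 or control 2, 7, 8 and 6 members had an unadjusted p below 0.05. Over all genes, 660 calls became 8 without control 2, 30 without knockout 1, 63 without knockout 2 and 1278 without control 3, the highest. *Cxcl1* and *Cxcl2* were not called without a filter or without any of knockout 1, knockout 2 and control 2 (adjusted p 0.065 to 0.118 and 0.0779 to 0.106), and *Cxcl2* was not called without control 3 and knockout 2 together (adjusted p = 0.0666). *Cxcl16* was called after rescaling (0.68), with voom (0.68) and without control 3 (0.63). *Cxcl3* was called without knockout 3 (-2.35), *Cxcl5* without knockout 3 (-4.21) or control 1 (-3.98), *Cxcl9* without knockout 3 (0.97) or with at least 10 reads in every library, *Cxcl10* without control 3 (0.99), and *Cxcl13* without control 3 (-2.76) or without both libraries (-3.0). The causes of these shifts were not tested. Rescaling moved the median of all genes from -0.11 to 0.01 and left *Cxcl1* at -1.06 and *Cxcl2* at -0.84. *Timd4* (-2.66, adjusted p = 0.0715) passed the threshold at a pseudocount of 0.1 (-4.0), with the replicate block (-2.66, adjusted p = 0.0436) and without control 3 and knockout 2 together (-3.67), and with 1 library left out it ran from -3.63 to -2.01, called in the absence of control 3. The log2 ratio of interferon-induced to neutrophil-attracting members, 3.21, was 2.88 for *Cxcl10* over *Cxcl1*. Among the lists, over 13 alternatives each, the calls ran from 0 to 2 for receptors, 0 to 6 for NF-κB targets, 0 to 8 for type I interferon targets, 0 to 6 for interferon γ targets, 0 to 1 for interferons and their receptors (1 without a filter on low values), 0 to 3 for mRNA decay factors and 0 to 6 for neighbouring genes.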

Other observations

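Of the 10 members, 9 lie on chromosome 5 and *Cxcl16* lies on chromosome 11. Among the 18 tested genes within 5 protein-coding genes of a member, 5 were called by limma, all lower, where 4.74% of all tested genes were called lower. Nothing is read from this count, since *Areg*, *Ereg*, *Afp* and *Alox15*, 4 of the 5, passed the filter on low values through the control group alone. Next to *Cxcl1*, *Cxcl2* and *Cxcl3* these were *Areg* and *Ereg*, ligands of the epidermal growth factor receptor, and *Afp*. *Areg* was at 0.411, 0.117 and 0.261 FPKM in knockout and 4.25, 3.78 and 1.64 FPKM in control libraries and fell by 1.69 (log2, adjusted p = 0.0177 from limma). *Ereg* was at 0.276, 0.618 and 0.425 FPKM against 3.58, 4.40 and 1.28 FPKM and fell by 1.42 (adjusted p = 0.0396 from limma). *Afp*, a fetal serum protein, was at 0.409 to 0.696 against 2.74 to 3.07 FPKM and fell by 1.33 (adjusted p = 0.00553 from limma). Beside *Cxcl9* and *Cxcl10*, both higher in the knockout libraries, *Uso1*, a Golgi tethering factor, was at 25.6, 26.5 and 30.3 FPKM against 54.1, 53.3 and 38.2 FPKM and fell by 0.79 (adjusted p = 0.0383 from limma). Beside *Cxcl16*, also higher, *Alox15*, a lipoxygenase of resident peritoneal macrophages, was at 0.102 to 0.345 against 1.19 to 2.69 FPKM and fell by 1.24 (adjusted p = 0.0196 from limma). On either side of *Cxcl9* and *Cxcl10*, *Sdad1* and *Nup54* differed by -0.28 and -0.14 without passing. The most abundant neighbours below the threshold were the proteasome subunit *Psmb6* (0.49) and the arrestin *Arrb2* (-0.96) near *Cxcl16*, and the annexin *Anxa3* (-0.02) near *Cxcl13*.

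Messages of *Cxcl1*, *Cxcl2* and *Cxcl3* are known to be short-lived through AU-rich elements. Of 11 factors that bind or cut such messages, 1 was called higher and 1 lower by limma, with a median log2 difference of -0.19, where 7.31% of all tested genes were called and their median was -0.11. *Arid5a*, which protects messages from decay, was at 22.8, 24.3 and 15.2 FPKM in knockout and 10.9, 7.41 and 5.12 FPKM in control libraries and rose by 1.33 (adjusted p = 0.0345 from limma). *Zfp36l1*, which promotes decay, was at 3.25, 3.46 and 2.20 FPKM against 11.5, 9.82 and 5.73 FPKM and fell by 1.30 (adjusted p = 0.0297 from limma). The number of these factors called was 3 with the replicate block and 1 after rescaling by the median of ratios. It was 0 with voom, without a filter on low values, and without any of knockout 1, knockout 2 and control 2. *Zfp36*, the gene of tristetraprolin, was the most abundant of the 11, at 337, 331 and 170 FPKM against 172, 114 and 86.3 FPKM. Knockout 3 lay just below control 1, and the log2 difference of 1.15 did not pass (adjusted p = 0.082 from limma). *Zc3h12a*, the endonuclease regnase-1, was at 119, 108 and 101 FPKM against 102, 89.2 and 97.9 FPKM, a log2 difference of 0.18, and *Zfp36l2* differed by 0.03.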
